A study of Mus musculus with 4 samples.

Results

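The 3 alpha-actin genes Acta1, Actc1 and Acta2 and the smooth muscle genes Tagln, Cnn1 and Myl9 were followed in single-nucleus RNA sequencing of neonatal mouse cardiomyocytes. These 6 genes were listed by name and not chosen by their levels, and all 6 were found among the 22574 genes of the deposited table. The table held 8585 cardiomyocyte nuclei in 4 libraries, 1 library for each group. Mice carried floxed Nrf1 (Nfe2l1) alleles in the C57BL/6 background according to the protocol, although the strain field of the labels runs from C57BL/6 to C57BL/9 over the samples. KO animals also carried Cre under the αMHC promoter, which deletes the gene in cardiomyocytes, whereas WT animals had the floxed alleles without Cre and were labelled Wildtype. At postnatal day 3 the left anterior descending coronary artery was tied (MI) or the chest was opened without ligation (Sham), and hearts were taken 1 day later. Tissue below the ligation plane, or at a similar level in Sham hearts, was pooled from 4 to 6 hearts of 1 genotype per library.

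In heart and skeletal muscle, Actc1 and Acta1 encode the cardiac and skeletal alpha-actins of the sarcomere thin filament, and Acta2 encodes the alpha-actin of smooth muscle. Fetal cardiomyocytes express Acta2 and Tagln transiently, and stressed heart muscle is known for re-expressing Acta1. Tagln (transgelin) and Cnn1 (calponin) bind actin filaments in smooth muscle, and Myl9 is a regulatory light chain of smooth muscle and nonmuscle myosin. Many of these genes are textbook targets of serum response factor (SRF), which binds the CArG box, a DNA element of CC, then 6 bases that are each A or T, then GG.

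The promoter windows of 4 members are shown because several CArG-like sites lie close together in them. RefSeq windows of build GRCm38.p6 running from 250 bases before to 50 bases after the start were found for 5 of the 6 members, and none was found for Tagln. Capitals mark each CArG-like site, meaning CC and GG at the right spacing with at most 1 of the 6 middle bases a G or C. The site reads as a CArG-like site on either strand.

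Acta1 (chr8:123894726-123895025, strand -): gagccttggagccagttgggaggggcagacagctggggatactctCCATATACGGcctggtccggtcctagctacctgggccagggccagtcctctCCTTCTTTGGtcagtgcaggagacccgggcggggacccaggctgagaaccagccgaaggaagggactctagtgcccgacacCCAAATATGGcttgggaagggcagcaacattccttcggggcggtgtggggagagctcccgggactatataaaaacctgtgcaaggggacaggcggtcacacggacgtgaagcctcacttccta
Actc1 (chr2:114052826-114053125, strand -): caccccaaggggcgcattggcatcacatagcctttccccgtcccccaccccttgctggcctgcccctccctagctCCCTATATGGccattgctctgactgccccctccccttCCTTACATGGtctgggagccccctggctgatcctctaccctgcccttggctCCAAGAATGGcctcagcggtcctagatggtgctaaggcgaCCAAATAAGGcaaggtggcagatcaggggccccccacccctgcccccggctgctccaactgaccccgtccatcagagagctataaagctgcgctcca
Acta2 (chr19:34255324-34255623, strand -): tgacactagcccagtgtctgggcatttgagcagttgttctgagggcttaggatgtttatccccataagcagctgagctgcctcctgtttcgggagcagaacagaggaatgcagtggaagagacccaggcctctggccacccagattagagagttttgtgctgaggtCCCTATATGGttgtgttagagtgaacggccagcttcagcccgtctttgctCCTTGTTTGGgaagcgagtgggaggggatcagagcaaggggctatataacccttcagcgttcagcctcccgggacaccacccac
Myl9 (chr2:156775214-156775513, strand +): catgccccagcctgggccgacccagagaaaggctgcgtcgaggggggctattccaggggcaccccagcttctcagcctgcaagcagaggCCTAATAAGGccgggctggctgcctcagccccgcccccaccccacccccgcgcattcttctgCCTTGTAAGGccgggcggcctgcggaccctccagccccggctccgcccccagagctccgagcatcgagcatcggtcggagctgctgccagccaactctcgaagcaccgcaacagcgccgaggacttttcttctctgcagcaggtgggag

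Actc1 held 4 CArG-like sites, Acta1 held 3, and Acta2 and Myl9 held 2 each. Such a site occurred in 9.98% of all 32851 promoter windows of this length, and 2 or more occurred in 0.822%. A site with no mismatch, present in 1.63% of all windows, lay in the windows of Acta1 (from base 178), Actc1 (from base 204) and Myl9 (from base 90). The letters TATAAA or TATATA, searched on both strands and found in 17.1% of all windows, were present in the windows of the 3 actins and in neither Myl9 nor Cnn1. The match lay 33 bases after the RefSeq start in Actc1 and 8 bases after it in Acta2. By the GENCODE coordinates given below, the whole Actc1 window and most of the Acta2 window lie inside the gene. The RefSeq starts used here thus differ from the GENCODE ends of these genes. The window of Cnn1 (chr9:22099003-22099302, strand +) had no CArG-like site, which says only that these letters are not within it. These matches are descriptions of sequence, and no binding was measured.

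**Figure D1:**
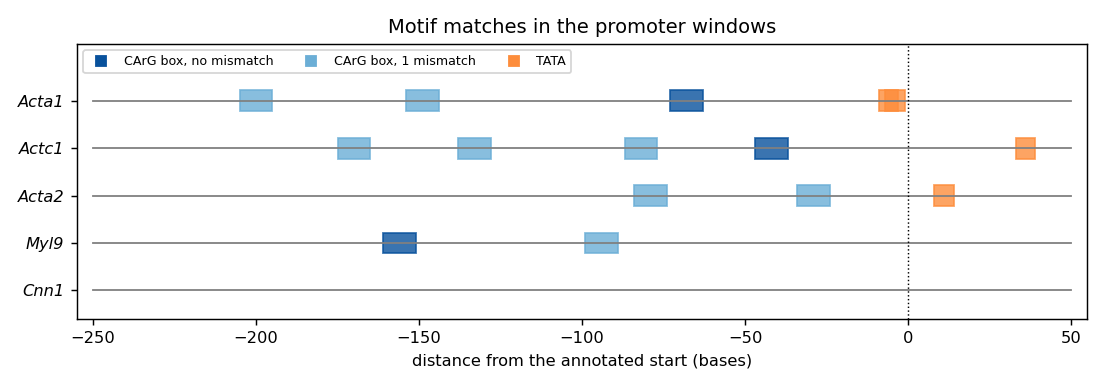
Position of CArG-like and TATA matches in the promoter windows of 5 members, as distance in bases from the annotated start (dotted line). Dark blue boxes have no mismatch, light blue boxes have 1, and orange boxes mark the TATA motif. Acta1, Actc1, Acta2 and Myl9 each have 2 or more CArG-like sites and Cnn1 has none.

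In the GENCODE M21 annotation of GRCm38, Acta1 lies on chromosome 8 (123891769 to 123894751, minus strand), Actc1 on chromosome 2 (114047282 to 114053548, minus strand) and Acta2 on chromosome 19 (34241090 to 34255590, minus strand). Tagln lies on chromosome 9 (45929619 to 45936058, minus strand), Cnn1 also on chromosome 9 (22099216 to 22109630, plus strand) and Myl9 on chromosome 2 (156775420 to 156781658, plus strand). The coding sequences of the 3 alpha-actins have 1134 bases each and are 82.5 to 86.2% identical, so read sharing was examined. No stretch of 30 bases was shared between any pair of them within the coding sequences, where the longest shared run was 29 bases, and after the stop codon the longest shared run was 11 bases. Acta2, Cnn1 and Myl9 overlap no other annotated gene, while Acta1, Actc1 and Tagln overlap genes on the opposite strand. Whether the counting used strand is not given in the sources used here, so whether reads of those overlaps were kept apart is not known. Of the overlapping genes in the table, Pcsk7, which covers Tagln, was at 43.7 to 56.0 CPM in the 4 libraries, where a UMI (unique molecular identifier) marks a captured RNA molecule and CPM is the UMIs of a gene for every 1000000 UMIs of the sum.

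The libraries held 1406 to 3328 nuclei and 4984625 to 9106522 UMIs, with medians of 2572 to 3959 UMIs per nucleus. KO-Sham had the most nuclei and the lowest median. Of the 10 cardiomyocyte markers examined, all 10 were detected in each library. RNA of other cells was present, since the red blood cell gene Hba-a1 had a UMI in 44.4 to 90.0% of these nuclei. All nuclei of the table are labelled as cardiomyocytes, so no cell type that should lack the members was at hand to read their share from free RNA. Barcodes were shared by more than 1 library in 9 cases. Nfe2l1, the targeted gene, was at 62.2 CPM in WT-Sham, 50.5 in KO-Sham, 47.4 in WT-MI and 55.3 in KO-MI. The library labelled KO-MI was thus not below the one labelled WT-MI, and which part of the gene is deleted relative to the 3′ tags is not given in the sources used here. KO and WT below name the libraries by their labels.

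After MI, Acta1, Cnn1, Tagln and Myl9 were more abundant in cardiomyocyte nuclei of both genotypes, while Actc1 and Acta2 differed by less than 1.5-fold. Levels are in CPM, with exact 95% Poisson intervals in parentheses. With 1 library per group there is no test between groups and no spread between animals, so the intervals cover counting error only. A gene was called past 1.5-fold when its ratio was at least 1.5 in size and the exact 95% interval of the ratio excluded no change, where the 2 sums together held at least 20 UMIs of it.

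Acta1 was at 10.6 (7.96 to 13.9) in WT-Sham, 22.1 (19.1 to 25.3) in KO-Sham, 93.6 (87.0 to 101) in WT-MI and 129 (121 to 138) in KO-MI. The intervals did not overlap, so the order WT-Sham, KO-Sham, WT-MI, KO-MI was clear of counting error. The ratio of MI to Sham was 8.81-fold in WT (log2 3.14, 95% interval 2.74 to 3.57) and 5.86-fold in KO (log2 2.55, 2.33 to 2.78). The share of nuclei with an Acta1 UMI was 3.56% in WT-Sham, 5.89% in KO-Sham, 28.5% in WT-MI and 35.3% in KO-MI. After thinning every nucleus to 1000 UMIs, the shares were 1.21, 2.34, 8.94 and 12.3% in the same order. Both shares kept the order of the levels. No Sham nucleus held more than 2 Acta1 UMIs, whereas 32 nuclei of WT-MI and 51 of KO-MI held 3 or more.

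Tagln was at 7.22 (5.06 to 10.0) in WT-Sham, 9.88 (7.95 to 12.2) in KO-Sham, 38.1 (33.9 to 42.6) in WT-MI and 51.6 (46.6 to 57.1) in KO-MI. The Sham libraries overlapped each other and lay below both MI libraries. MI over Sham was 5.27-fold in WT (log2 2.40, 1.90 to 2.94) and 5.22-fold in KO (log2 2.39, 2.05 to 2.73). A Tagln UMI was found in 2.28% of WT-Sham, 2.49% of KO-Sham, 12.1% of WT-MI and 14.4% of KO-MI nuclei. In KO-MI, 10 nuclei held 22.6% of the Tagln UMIs, with up to 23 in 1 nucleus, so this sum is more concentrated than that of Acta1, where 10 nuclei held 8.40%.

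Cnn1 had the fewest UMIs of the 6 members. It had 11 UMIs in WT-Sham, 19 in KO-Sham, 139 in WT-MI and 207 in KO-MI, or 2.21 (1.10 to 3.95), 2.09 (1.26 to 3.26), 17.5 (14.7 to 20.6) and 28.1 (24.4 to 32.2) CPM. Both Sham libraries overlapped and lay below the MI libraries. MI over Sham was 7.92-fold in WT (log2 2.98, 2.10 to 4.02) and 13.5-fold in KO (log2 3.75, 3.07 to 4.51), with wide intervals because of the small Sham counts.

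Myl9 was at 85.3 (77.3 to 93.8) in WT-Sham, 144 (137 to 152) in KO-Sham, 151 (143 to 160) in WT-MI and 241 (230 to 252) in KO-MI. KO-Sham and WT-MI overlapped, with WT-Sham below and KO-MI above them. MI over Sham was 1.77-fold in WT (log2 0.83, 0.66 to 0.99) and 1.67-fold in KO (log2 0.74, 0.63 to 0.84), a smaller ratio than that of Tagln or Cnn1.

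Acta2 was already common in Sham nuclei. It was at 160 (149 to 171) in WT-Sham, 276 (265 to 287) in KO-Sham, 230 (220 to 241) in WT-MI and 322 (309 to 335) in KO-MI, and was detected in 38.9, 50.8, 54.9 and 62.2% of nuclei in that order. No pair of libraries overlapped, and KO-Sham lay above WT-MI. MI over Sham was 1.44-fold in WT (log2 0.53, 0.40 to 0.65) and 1.17-fold in KO (log2 0.22, 0.14 to 0.30), neither past 1.5-fold. With edgeR TMM scaling (trimmed mean of M-values, which rescales library totals) or median-of-ratios size factors the WT ratio passed.

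Actc1, the main actin of the working heart muscle, was found in 99.6 to 100% of nuclei. Its level was 2366 (2324 to 2409) in WT-Sham, 3814 (3774 to 3855) in KO-Sham, 2608 (2572 to 2643) in WT-MI and 3186 (3145 to 3227) in KO-MI. The MI library was higher than Sham in WT (log2 0.14, 0.11 to 0.17) and lower in KO (log2 -0.26, -0.28 to -0.24). Neither ratio reached 1.5-fold.

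**Figure D2:**
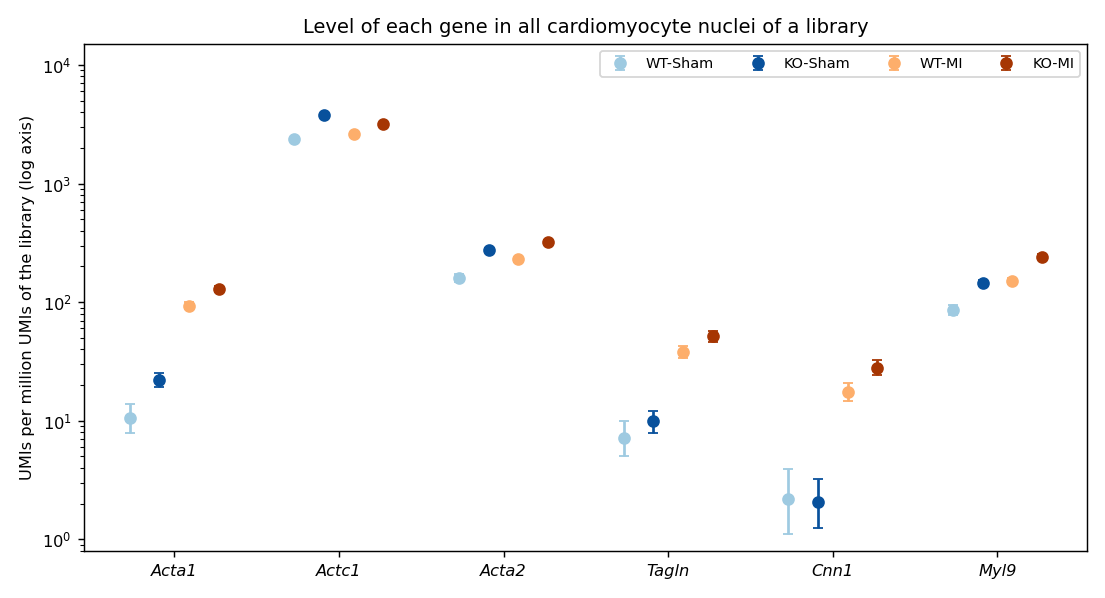
Level of each member in all nuclei of the 4 libraries, in CPM on a log axis, with exact 95% Poisson intervals as bars. Acta1, Tagln and Cnn1 separate into low Sham and high MI libraries, whereas Acta2, Actc1 and Myl9 do not.

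Counted together, 4 of 6 members were past 1.5-fold in the higher direction in WT-MI over WT-Sham, where 9.79% of 13415 genes were. In KO-MI over KO-Sham the same 4 genes were past (Acta1, Tagln, Cnn1 and Myl9), against 11.6% of 13806 genes. No member was past in the lower direction in either, where 12.5% of genes were in WT and 9.73% in KO. The median log2 ratio of the members was 1.61 in WT and 1.56 in KO, beside -0.07 and 0.04 for all genes entered. WT-MI over WT-Sham and KO-MI over KO-Sham share no library.

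The make-up of the alpha-actin UMIs differed between Sham and MI libraries. Acta1 made up 0.419% of the UMIs of the 3 alpha-actin genes in WT-Sham (95% binomial interval 0.314 to 0.548), 0.537% in KO-Sham (0.465 to 0.616), 3.19% in WT-MI (2.97 to 3.43) and 3.56% in KO-MI (3.34 to 3.79). Acta2 made up 6.30% in WT-Sham, 6.71% in KO-Sham, 7.85% in WT-MI and 8.85% in KO-MI. Actc1 remained the bulk, at 93.3% in WT-Sham, 92.8% in KO-Sham, 89.0% in WT-MI and 87.6% in KO-MI. The UMIs were not scaled by gene length, so these shares compare libraries with each other and do not rank the genes.

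All 6 members had a higher level in KO than in WT after MI, and 5 of 6 in Sham. Of all genes entered, 55.3% had a log2 ratio above 0 after MI and 38.5% in Sham. Among the members, only Acta1 in Sham was past 2-fold. In KO-Sham over WT-Sham, Acta1 (2.08-fold, log2 1.05, 0.61 to 1.52), Acta2 (1.73-fold, log2 0.79, 0.67 to 0.91), Myl9 (1.69-fold, log2 0.76, 0.60 to 0.92) and Actc1 (1.61-fold, log2 0.69, 0.66 to 0.72) were past 1.5-fold. These 4 of 6 compare with 3.07% of 13370 genes past in the higher direction. The log2 ratio of Tagln was 0.45 (-0.12 to 1.05) and that of Cnn1 was -0.08 (-1.23 to 1.14), both with intervals that include no change. No member was past in the lower direction, where 2.69% of genes were in Sham and 1.6% after MI. In KO-MI over WT-MI, Cnn1 (1.61-fold, log2 0.69, 0.37 to 1.01) and Myl9 (1.59-fold, log2 0.67, 0.57 to 0.78) were past, against 1.54% of 13678 genes. The log2 ratios of the other 4 members ran from 0.29 for Actc1 to 0.48 for Acta2, with intervals above 0. The median log2 ratio of the members was 0.72 in Sham and 0.47 after MI, beside -0.09 and 0.03 for all genes. With calls at 2-fold, 1 of 6 members (Acta1) was past in Sham and 0 of 6 after MI, where 0.793% and 0.556% of genes were. TMM scaling would move every Sham ratio by 0.10 on the log2 scale, so that of Cnn1 would lie above 0. KO-Sham had a median of 8.98% mitochondrial UMIs per nucleus against 5.29 to 6.58% in the other libraries. With mitochondrial UMIs left out of the total, 4 of 6 members were past 1.5-fold in Sham. Marker sums of other cell types differed between genotypes as well. In KO-MI over WT-MI the atrial sum was at log2 1.68, the myeloid at -0.93 and the red blood cell at -1.09. In KO-Sham over WT-Sham the endothelial sum was at 0.59, the atrial at 0.48, the red blood cell at -0.51 and the myeloid at -0.44. In the 50% of nuclei of each population and library with the lowest share of fibroblast, endothelial, myeloid and red blood cell markers, 4 of 5 entered members were past in Sham and 2 of 6 after MI. The share of all genes was not computed in these nuclei or without mitochondrial UMIs. The part of the atrial sum was not tested. KO and WT are 1 pool of hearts each, so genotype and pool cannot be told apart.

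**Figure D3:**
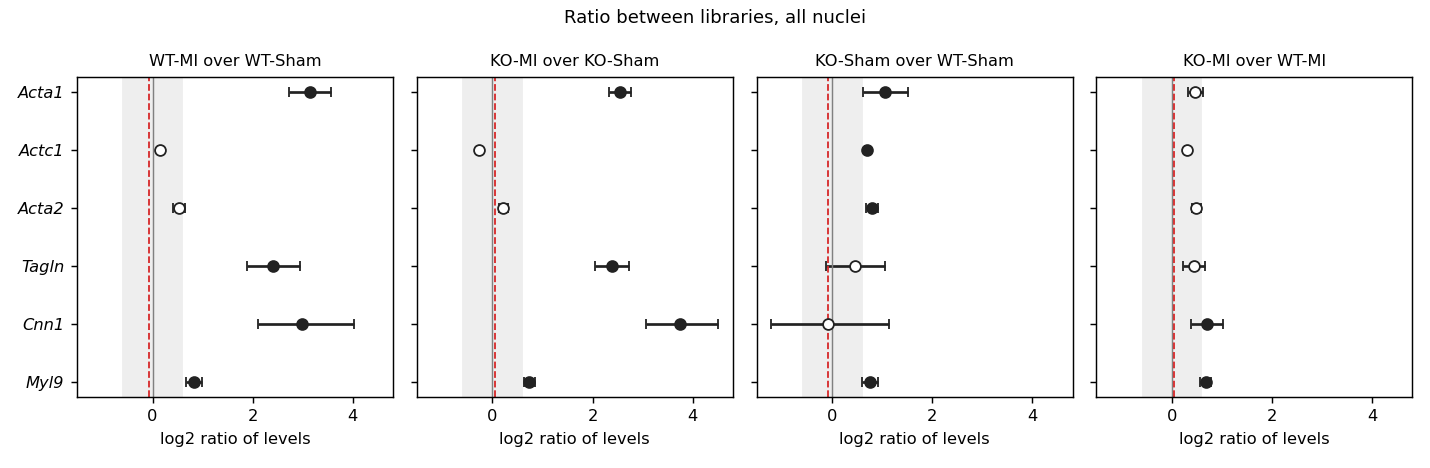
Log2 ratio of levels between libraries for each member, with exact 95% intervals as bars. Filled points are past 1.5-fold, the grey band spans ratios under 1.5-fold, and the dashed red line is the median of all genes entered. Acta1, Tagln and Cnn1 lie above a log2 ratio of 2 in both MI over Sham comparisons, and the highest KO over WT ratio is 1.05, that of Acta1 in Sham.

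Smooth muscle cells were looked for through other genes that define them. Myh11, the smooth muscle myosin heavy chain, had 2 UMIs in WT-Sham, 10 in KO-Sham, 6 in WT-MI and 9 in KO-MI, and was seen in 0.14 to 0.38% of nuclei. All 7 smooth muscle markers outside the members had a UMI in 3 libraries, and 6 of 7 in KO-Sham, where Lmod1 was at 0. Their summed level ranged from 124 to 153 CPM in the Sham libraries and from 83.3 to 85.0 in the MI libraries, most of it Smtn, which other muscle also expresses. The 7 pericyte markers were all detected, at 75.4 to 76.4 CPM in Sham and 100 to 106 after MI. Of these, Cspg4 was at 31.9 and 25.7 CPM in WT-Sham and KO-Sham and at 62.3 and 65.5 in WT-MI and KO-MI, whereas the other 6 summed to 44.5, 49.7, 37.7 and 40.1. In nuclei with no UMI of any of these 14 markers, Acta1 MI over Sham was log2 2.90 in WT and 2.70 in KO, Tagln 1.85 and 2.62, and Cnn1 2.45 and 3.69. This filter rested mainly on Smtn, with a UMI in 23.2 to 36.5% of nuclei, and on Cspg4, with one in 6.70 to 20.9%. Nuclei it left out are therefore not shown to be smooth muscle cells or pericytes.

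Markers of other cell types differed with the injury too. The 11 myeloid markers, all detected, summed to 107 to 146 CPM in Sham and 300 to 574 after MI. The 8 fibroblast markers, all detected, summed to 1040 to 1197 in Sham and 997 to 1020 after MI. MI over Sham of the epicardial sum was log2 1.18 in WT and 0.98 in KO, of the atrial sum 0.28 and 1.47, of the endothelial sum -0.11 and -0.55, and of the red blood cell sum 0.46 and -0.13. In the 50% of nuclei of each population and library with the lowest share of fibroblast, endothelial, myeloid and red blood cell marker UMIs, MI over Sham was log2 2.79 in WT and 2.42 in KO for Acta1, at 2.43 and 2.56 for Tagln, and at 2.69 and 3.92 for Cnn1.

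The nuclei carry 2 deposited population names, one that has no CM3 and is used here, and one transferred from an earlier reference of neonatal cardiomyocytes. CM1, into which the study merged CM3, is the main population, CM2 and CM5 are others, and CM4 is the population for which the study uses Acta2 as a marker. The names disagree in part. Of 853 CM4 nuclei, 652 had the transferred name CM4 and 154 had CM1. Of 1017 CM5 nuclei, 743 had the transferred name CM2 and 0 had CM5, and of 275 CM2 nuclei, 197 had CM5 and 0 had CM2. Since the labels rest on expression, levels by population describe the labelled nuclei and are no test. CM4 made up 13.7% of nuclei in WT-Sham, 10.5% in KO-Sham, 9.59% in WT-MI and 6.39% in KO-MI.

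Acta2 in CM4 was at 400 (340 to 467) in WT-Sham, 402 (358 to 451) in KO-Sham, 536 (469 to 611) in WT-MI and 983 (881 to 1094) in KO-MI. In CM1 it was at 136, 264, 217 and 298 in the same order. CM4 was above CM1 in each library, by log2 1.55 (1.29 to 1.81) in WT-Sham, 0.61 (0.42 to 0.78) in KO-Sham, 1.31 (1.10 to 1.51) in WT-MI and 1.72 (1.55 to 1.89) in KO-MI. The gap was smallest in KO-Sham, where CM1 was above that of WT-Sham and the CM4 levels of both Sham libraries overlapped.

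The other members were also higher in CM4 than in CM1. Acta1 in CM4 was at 27.8 CPM in WT-Sham, 34.2 in KO-Sham, 187 in WT-MI and 387 in KO-MI. Myl9 was at 217, 219, 273 and 780 in the same order, and Tagln at 22.8, 19.2, 78.3 and 201. For each of these 3 genes the Sham libraries overlapped and KO-MI lay above all others. Actc1 was at 7310, 5652, 7158 and 10027, so its lowest CM4 level was that of KO-Sham. All 5 members with enough UMIs were past 1.5-fold in WT-Sham (17.4% of genes were) and in KO-Sham (10.8%), and all 6 in WT-MI (17.6%) and KO-MI (17.3%). Other scalings would move these CM4 over CM1 ratios by log2 -0.19 (TMM, WT-MI) to 0.33 (median-of-ratios size factors, WT-Sham). In KO-MI, 10 nuclei held 69.6% of the Tagln UMIs of CM4, with up to 23 in 1 nucleus. At 2-fold, 1 of 5 was past in KO-Sham, where 3.64% of genes were. Cnn1 was the member not entered in Sham, with 2 and 3 UMIs in CM4 of WT-Sham and KO-Sham. Leaving out the 10 nuclei with the most UMIs of a gene from each sum left 0 of 5 past in KO-Sham. It left 3 past in WT-Sham, 2 of 6 in WT-MI and 6 of 6 in KO-MI. In KO-Sham it turned Acta1 (log2 -0.041) and Tagln (log2 -0.30) to below CM1. There it takes 10 of 351 nuclei from CM4 and 10 of 2619 from CM1, so the setting itself tends to lower CM4 over CM1. It therefore does not show that CM4 is below CM1. CM4 nuclei were shallower, with medians of 1716 to 2394 UMIs against 2632 to 4044 in CM1, and had a median of 9.47 to 14.6% mitochondrial UMIs against 5.05 to 8.78%. The fibroblast marker sum was also higher in CM4 than in CM1, by log2 1.09 to 1.38, the endothelial sum by 0.99 to 1.91, the pericyte sum by 0.59 to 1.47 and the red blood cell sum by 0.80 to 2.33. The smooth muscle sum was at log2 -0.95 to -0.09. In nuclei without smooth muscle or pericyte markers, 3 of 4 entered members were past in WT-Sham, 2 of 5 in KO-Sham and 6 of 6 in each MI library. In the 50% of nuclei with the lowest share of fibroblast, endothelial, myeloid and red blood cell markers, 4 of 4 were past in WT-Sham, 1 of 5 in KO-Sham and 6 of 6 in each MI library. With the transferred name, 4 of 5 were past in each Sham library and 6 of 6 in each MI library. The share of all genes was not computed with nuclei left out or with the transferred name. Counts under those settings therefore have no background beside them.

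The highest level of each of the 6 members was that of CM4 in KO-MI, although for Cnn1 its interval overlapped those of CM4 in WT-MI and CM5 in KO-MI. Against CM4 in WT-MI, Acta1 was higher by log2 1.05 (0.63 to 1.47), Acta2 by 0.87 (0.63 to 1.12), Tagln by 1.36 (0.74 to 2.003) and Myl9 by 1.51 (1.19 to 1.84). These 4 of 6 compare with 5.17% of 5686 genes in the higher direction. Actc1 stood at 0.49 (0.42 to 0.56) and Cnn1 at 0.57 (-0.26 to 1.41). In Sham, 0 of the 5 entered members were past in CM4, where 8.06% of 6811 genes were, and their median log2 ratio was 0.01, beside 0.06 for all genes. In MI over Sham, all 6 were past in KO (9.5% of genes), from log2 0.83 for Actc1 to 4.36 for Cnn1, and 3 of 6 in WT (15.5%), namely Acta1 (2.75), Tagln (1.78) and Cnn1 (3.49). Cnn1 had 3 UMIs or fewer in CM4 of each Sham library, so its ratios there are wide, at 2.67 to 6.72 in KO and 1.48 to 6.62 in WT. The atrial marker sum of CM4 was above that of CM1 by log2 4.35 in KO-MI and by 0.70 to 1.75 in the other libraries. KO-MI CM4 is 118 nuclei, of which the 10 highest in the atrial light chain gene Myl7 held 96.2% of the Myl7 UMIs of that sum, 22.4% of Myl9, 21.1% of Acta1, 11.5% of Acta2 and 10.1% of Tagln, with 11.1% of all UMIs. Without them the ratios were 0.87 for Acta1, 0.87 for Acta2, 1.37 for Tagln and 1.32 for Myl9, so 4 of 6 were again past. They held only 7 of the 69 Tagln UMIs of that sum, so this check bears little on Tagln. Most Tagln UMIs of that sum lay in few nuclei, as given above. The ratio to WT-MI was not recomputed without the nuclei highest in Tagln. With the transferred name, 3 of 6 were past, Acta1 (1.09), Acta2 (0.79) and Myl9 (1.29), and Tagln was at 0.48 (-0.13 to 1.10). The share of all genes was not computed with this name or without the nuclei highest in Myl7.

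Cnn1 was also higher in CM5 than in CM1 of both MI libraries. CM5 makes up 16.9% of WT-MI and 19.2% of KO-MI nuclei against 6.33 and 7.03% in WT-Sham and KO-Sham. In WT-MI, 57 Cnn1 UMIs in CM5 gave 38.6 CPM (29.2 to 49.98), against 9.83 (7.44 to 12.7) from 57 UMIs in CM1. In KO-MI it was at 51.3 (40.1 to 64.6) in CM5 against 19.0 (15.5 to 23.1) in CM1. Cnn1 was the only member past 1.5-fold in CM5 over CM1 in WT-MI (log2 1.97, 1.42 to 2.53), and in KO-MI it was joined by Tagln (Cnn1 1.43, 0.98 to 1.88, and Tagln 0.68, 0.31 to 1.04). Genes past in the higher direction made up 10.4% and 11.4% of those entered. None of the 5 entered members was past in WT-Sham (3.06% of genes) or KO-Sham (2.77%). The pericyte sum was also higher in CM5 than in CM1, by log2 0.57 in WT-MI and 1.17 in KO-MI, and the epicardial sum by 0.18 and 0.70, while the cardiomyocyte sum was at -0.42 and -0.41 and the smooth muscle sum at -1.44 and -1.25. Their part in the CM5 levels was not tested. Over nuclei with the transferred names CM2 and CM1, Cnn1 was at log2 2.06 (1.49 to 2.62) in WT-MI and 1.33 (0.87 to 1.78) in KO-MI, whereas Tagln was at -0.080 (-0.52 to 0.34) in KO-MI and not past. In KO-MI, 10 nuclei held 54.2% of the Cnn1 and 52.2% of the Tagln UMIs of CM5. No member was past 1.5-fold in CM2 over CM1 in any of the 4 libraries, where 6.39% of genes were in WT-Sham, 10.2% in KO-Sham, 7.82% in WT-MI and 7.68% in KO-MI.

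Within CM1 alone the injury ratios of Acta1, Tagln and Cnn1 were again over 4-fold. MI over Sham in CM1 was log2 3.28 in WT and 2.42 in KO for Acta1, 2.74 and 2.11 for Tagln, and 2.35 and 3.66 for Cnn1. In WT, 5 of 6 members were past 1.5-fold (7.46% of genes), Acta2 included, and in KO 4 of 6 (9.5%). In KO over WT, all 5 entered members were past in Sham (4.94%), Tagln included (log2 0.81, 0.09 to 1.57), and 1 of 6 after MI (1.78%), which was Cnn1 (0.95, 0.47 to 1.44).

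**Figure D4:**
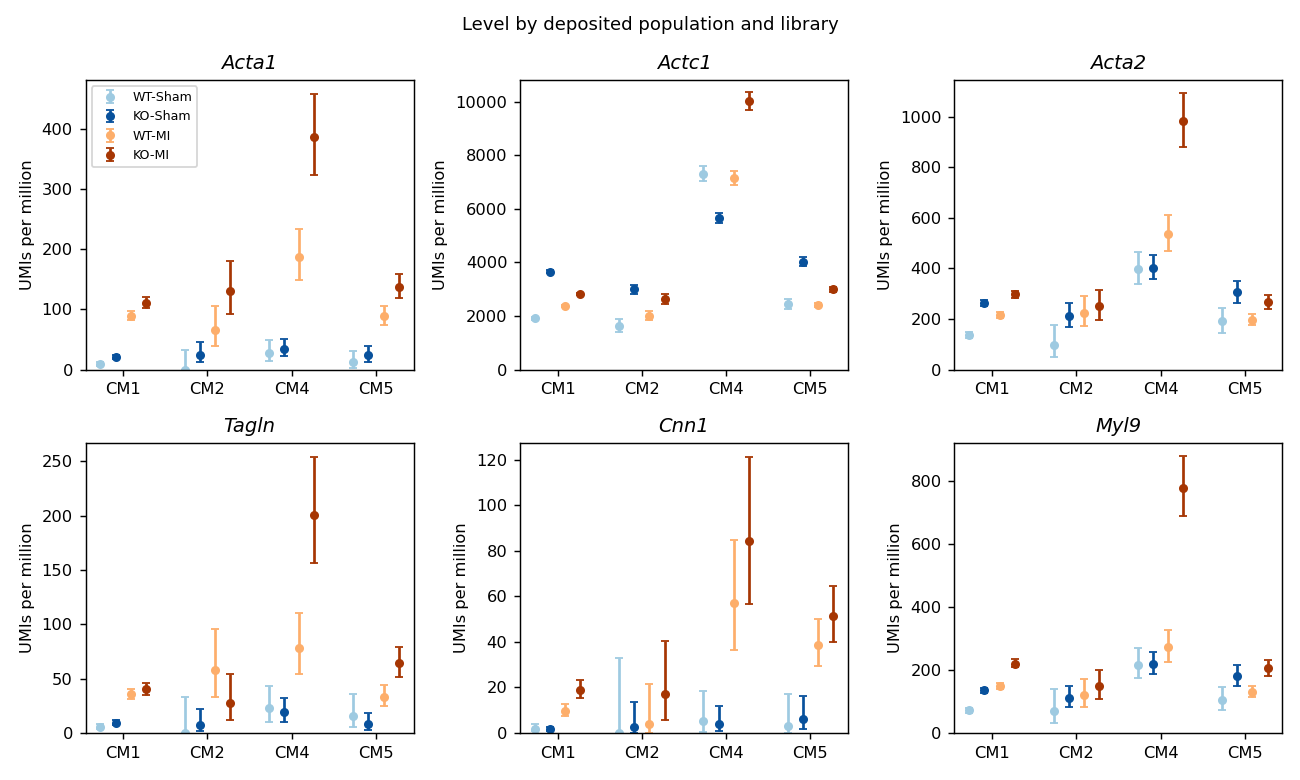
Level of each member by deposited population and library, in CPM, with exact 95% Poisson intervals as bars and a linear axis from 0 that differs between panels. CM4 of KO-MI holds the highest level of each member, and for Cnn1 its interval overlaps that of CM4 in WT-MI.

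Whether Acta2 and Tagln were found in the same nuclei was examined next. Both had a UMI in 11 of 1406 nuclei of WT-Sham (0.78%, exact 95% binomial interval 0.39 to 1.40), 51 of 3328 of KO-Sham (1.53%, 1.14 to 2.01), 132 of 2003 of WT-MI (6.59%, 5.54 to 7.77) and 174 of 1848 of KO-MI (9.42%, 8.12 to 10.8). Nuclei with both were thus more frequent after MI in each genotype. The count was then set against the product of the shares of the 2 genes, which is the count that detection of one regardless of the other would give. The observed count was 0.88 times that product in WT-Sham (0.44 to 1.58), 1.21 in KO-Sham (0.90 to 1.59), 0.99 in WT-MI (0.84 to 1.17) and 1.05 in KO-MI (0.91 to 1.21). Each interval includes 1, but it covers the count with both only and takes the product as fixed. These intervals therefore do not exclude an excess of shared nuclei, and the highest ratio was that of KO-Sham. Formed within 5 bins of equal size by UMIs per nucleus, the ratios were 0.89, 1.18, 0.98 and 1.03. Seen the other way, Acta2 was detected in 54.5% of the Tagln-positive and 54.97% of the Tagln-negative nuclei of WT-MI, and in 65.4 and 61.7% in KO-MI. With 2 UMIs of each gene asked for, the ratios were 1.86 in WT-MI (15 nuclei, 1.04 to 3.06) and 1.59 in KO-MI (21 nuclei, 0.988 to 2.43), and in WT-Sham and KO-Sham only 1 and 2 nuclei qualified.

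The other pairs were similar. Of the 10 pairs that leave out Actc1, which nearly every nucleus had, all 10 could be read in each MI library (at least 5 nuclei by the product), and their ratios ran from 0.99 to 1.31 in WT-MI and from 1.04 to 1.18 in KO-MI. Acta2 with Myl9 was the one pair whose interval lay above 1, in 3 of 4 libraries, at 1.18 (1.01 to 1.38) in WT-Sham, 1.08 (1.003 to 1.17) in KO-Sham and 1.07 (1.01 to 1.14) in KO-MI, and it was 1.08 (0.99 to 1.16) in WT-MI. At least 3 of Acta2, Tagln, Cnn1 and Myl9 were detected in 0.356% of nuclei in WT-Sham, 0.631% in KO-Sham, 5.09% in WT-MI and 9.69% in KO-MI. The product of shares gives 0.265, 0.488, 4.30 and 7.88% for these. All 4 genes were seen in 0 nuclei of WT-Sham, 1 of KO-Sham, 9 of WT-MI and 16 of KO-MI. The product gives 0.0183, 0.0748, 3.18 and 7.65 nuclei. For all 4 genes the interval lay above the product in WT-MI (0.206 to 0.851% against 0.159%). The same held in KO-MI (0.496 to 1.40% against 0.414%), and there for at least 3 genes (8.38 to 11.1%). The other intervals included the product. These products, and those of Acta2 with Myl9 above, were taken over whole libraries and not within bins of depth or populations. A count of 0 of 1406 allows up to 0.213% of nuclei with a UMI of all 4 (3 nuclei of the total), which does not limit nuclei that express them without a UMI.

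**Figure D5:**
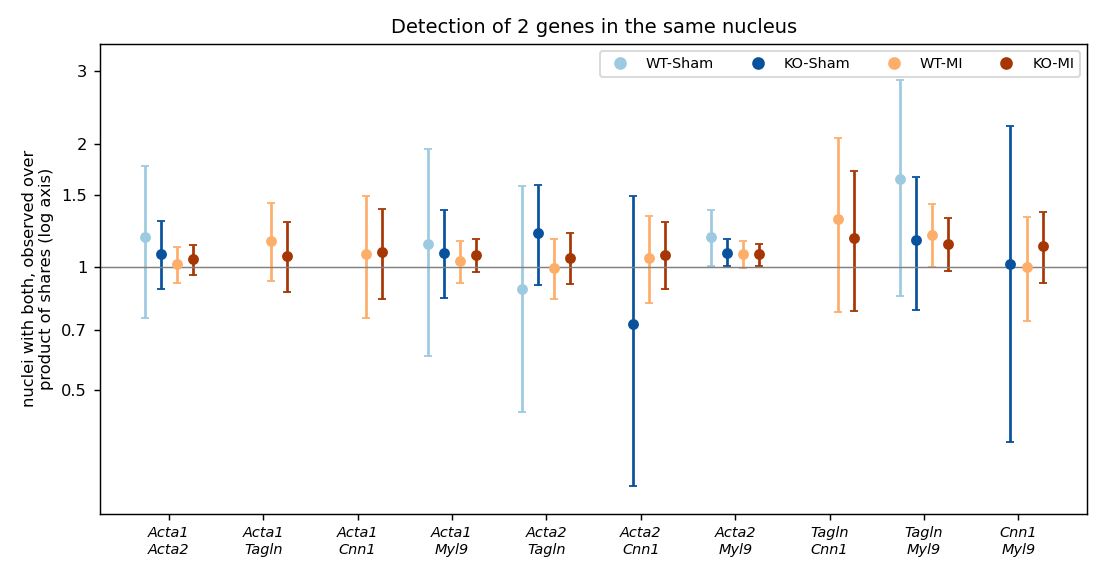
Nuclei with a UMI of both genes of a pair, as the ratio of the observed count to the product of the shares, on a log axis with 95% binomial intervals as bars. Pairs with under 5 nuclei by the product are left out in that library. Nearly all intervals include 1, with the product taken as fixed.

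Nuclei with both genes were spread over the populations. In KO-MI, 115 of the 174 were CM1, 27 were CM4, 27 CM5 and 5 CM2, and the CM4 nuclei with both were 22.9% of CM4. In WT-MI, 88 of 132 were CM1 and 16 CM4. Genes were ranked by the median over the 4 libraries of their ratio between nuclei with both and the other nuclei. The 10 leading genes are thus high in that ratio by the ranking itself. Of these, Eln (elastin) was at log2 0.99 to 1.28 and Serpine2, a secreted protease inhibitor, at 0.73 to 1.23. Only in WT-MI and KO-MI did the intervals exclude 0 for both genes. Thbs1, Tnnt1, Abcc1, Selenow and Ccnd1 were also above 0 in each library, and Dcc was below 0 in KO-Sham (log2 -0.12). Each of these genes had intervals that include 0 in some libraries, such as Thbs1 in WT-MI (log2 0.06, -0.54 to 0.60). Thbs1 and Abcc1 had only 1 UMI each in the WT-Sham nuclei with both. Among the 10 genes with the highest median ratio, Fgf12 and Myl7 rested on few nuclei. Of 162 Fgf12 UMIs in nuclei with both, 131 came from 1 nucleus, and of 176 Myl7 UMIs, 78 came from 1 nucleus. The fibroblast marker sum was higher in nuclei with both by log2 0.27 to 0.42, and the smooth muscle sum by 0.02 to 0.21, with intervals that include 0 for the latter. The pericyte sum was higher by log2 0.58 (0.22 to 0.92) in WT-MI. It was at 0.02 in WT-Sham, 0.47 in KO-Sham and -0.14 in KO-MI, with intervals that include 0. The atrial sum was higher by log2 2.45 in KO-MI and the red blood cell sum by 3.24 in WT-Sham, where only 11 nuclei had both. The part of these in the gene ranking was not tested.

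Over the 16 sums of a library and a population, Acta2 and Tagln were most like different genes. Among 7080 genes with 500 or more UMIs, Acta2 was most like Rps26 (Pearson r of log2(CPM + 1) 0.98), followed by Ldha (0.97), Myl9 (0.96), Rps18 (0.96) and Rpl36al (0.96). Rps26, Rps18 and Rpl36al encode ribosomal proteins and Ldha encodes lactate dehydrogenase. Tagln was most like Acta1 (0.95), followed by Copg1 (0.95), Nmrk2 (0.94), Lgals3 (0.92) and Odc1 (0.92). Acta2 and Tagln had r = 0.75 with each other, at rank 192 from Tagln and 522 from Acta2. The points share libraries and differ in depth, so these r values are descriptions. Cnn1 was below 500 UMIs and was not ranked.

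Other smooth muscle and SRF target genes also differed with the injury. Of 23 such genes, 20 were entered in WT-MI over WT-Sham and 9 were past 1.5-fold higher and 2 lower, where 9.79% and 12.5% of all genes were. Of 21 entered in KO-MI over KO-Sham, 10 were higher and 1 lower, where 11.6% and 9.73% of all genes were. Tpm2, a tropomyosin, Cald1, which binds actin and tropomyosin, and Pdlim7, a LIM-domain protein of the actin cytoskeleton, were the 3 with the largest ratios in both, at log2 1.95, 1.73 and 1.40 in WT and 1.49, 1.62 and 1.47 in KO. Smtn (smoothelin) was lower in both, by log2 -0.89 in WT and -0.61 in KO, and Filip1l in WT, by -0.67. Tpm1, with the most UMIs of the list, was at log2 0.18 and 0.03. The list medians were 0.40 and 0.64, beside -0.07 and 0.04 for all genes. Over all nuclei, neither KO over WT comparison had a gene of this list past 1.5-fold among the 20 entered. Of all genes, 1.54% were higher and 1.6% lower after MI, and 3.07% and 2.69% in Sham, so this count is near the background. In single populations some were past, such as 2 of 20 higher in CM1 in Sham, where 4.94% of genes were.

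The lists of other actins and of SRF and its cofactors are short. Their counts past 1.5-fold in MI over Sham therefore cannot be set apart from the share of all genes. Actb and Actg1, the cytoplasmic actins, were at log2 0.52 and 0.37 in WT and 0.38 and 0.54 in KO, all under 1.5-fold, beside list medians of 0.45 and 0.54, and Actg2, the gamma-actin of smooth muscle, had 4 to 13 UMIs per library. Of SRF and its cofactors, 6 were in the table, and 1 of them was past 1.5-fold in WT-MI over WT-Sham and 0 in KO-MI over KO-Sham (9.79% and 11.6% of all genes were). This was Srf itself, at log2 0.66 (0.04 to 1.31, 31 to 78 UMIs) in WT beside 0.46 (0.01 to 0.91, 81 to 90 UMIs) in KO, and whether these differ was not tested. In CM1 alone Srf was at 0.69 (-0.04 to 1.47) and 0.23 (-0.30 to 0.76), neither past. Myocd (myocardin), the SRF coactivator of heart and smooth muscle, had the most UMIs and was at -0.25 and -0.06, beside list medians of -0.12 and -0.02. Among 18 genes of filament length and turnover, 17 were entered and 2 were past in each genotype, Actn1 (log2 1.71 and 1.998) and Actn4 (1.34 and 1.48), which encode actin-crosslinking actinins. Of all genes 9.79% in WT and 11.6% in KO were past in that direction, so the count of this list is near the background. The gene with most UMIs of that list was Actn2, at 0.24 and 0.27. Of 10 genes of TGF-beta signalling, 4 were past higher in each genotype (9.79% and 11.6% of all genes were). Ccn2, a secreted matricellular protein, was at log2 4.33 in WT and 3.89 in KO, and the ligands Tgfb3 at 2.38 and 2.48 and Tgfb2 at 1.92 and 1.97. Tgfbr3, a coreceptor, was past in the lower direction in WT (-0.65, where 12.5% of genes were) and stood at -0.43 in KO. Ltbp1, with the most UMIs of that list, was at -0.22 and 0.22. The medians were 0.26 in both genotypes for the TGF-beta genes and 0.10 and 0.09 for the filament genes.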

How the data were processed

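Per the labels and the study's methods, cardiac nuclei were sequenced with 10x Genomics single-cell 3′ kits, and the authors made the deposited UMI counts with Cell Ranger (version not given in the sources used here) on the mm10/GRCm38 pre-mRNA reference, removed doublets, kept nuclei with 200 to 2500 detected genes, took cardiomyocytes and merged the libraries with Seurat 3. The percent of mitochondrial UMIs per nucleus is deposited as the authors computed it. The 11 other columns of the per-nucleus table were not used here. UMIs were summed per library and population and divided by all UMIs of the sum. Intervals were exact (scipy 1.17.1). Their coverage was tested only on sums simulated with Poisson counts, the model they assume. That test does not show their coverage for genes whose UMIs lie in few nuclei. Calls used 1.5-fold, 20 UMIs over both sums and a floor of 3 UMIs. Thinning drew 1000 UMIs per nucleus and left out 7 shallower nuclei. TMM factors came from edgeR 4.0.16. Nuclei of 1 pool are not replicates, so no p-value is given. Named genes were the 6 members, and for each pathway list the gene with the most UMIs and up to 3 genes with the largest ratios past 1.5-fold in each direction of a comparison. Likeness took the 5 highest r for Acta2 and Tagln, and nuclei with both took the 10 genes with the highest median ratio over the 4 libraries (50 or more UMIs, 0.5 added to each sum). Tgfb2, Actg1, Srf and the genes named among marker lists were chosen after their values were seen. A gene of the TGF-beta list that the rule names is not reported here. The members and lists were chosen with earlier results of these data known. GENCODE M21, the build of the files, matched 22122 of 22574 symbols.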

Additional observations from a re-analysis of the deposited data

Results flagged for a closer look

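Actc1 differed in direction between the genotypes after MI and between Sham and MI in CM4. Over all nuclei its log2 ratio of MI to Sham was 0.14 in WT and -0.26 in KO. The same opposite directions were seen in CM1 (0.30 in WT and -0.37 in KO) and in CM2 (0.30 and -0.20). In CM4 its log2 ratio of KO to WT was 0.49 after MI and -0.37 in Sham. Each interval excludes 0, but these cover counting error only, and with 1 library per group the difference was not tested. In groups of 1 library no sample can be compared with others of its group.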

How the results depend on the processing

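Of 104 recomputed counts of members and co-detection ratios, 87 stayed within 1.5 times the count or within the interval. No paired analysis was possible because each group is 1 library and the labels carry no replicate numbers. Calling at 2-fold left 0 members past in KO-MI over WT-MI, 1 in KO-Sham over WT-Sham and 1 in CM4 over CM1 of KO-Sham. CM1 nuclei alone left 1 past in KO-MI over WT-MI, with Myl9 just under 1.5-fold. In CM4 over CM1 of WT-Sham, 3 members were past after thinning, without the 10 highest nuclei, and in nuclei without smooth muscle or pericyte markers. In KO-Sham, 3 were past with TMM factors, 1 after thinning, 0 without the 10 highest nuclei (Acta1 -0.041 and Tagln -0.30 then lay below CM1), 2 in nuclei without those markers and 1 in the 50% of nuclei with the lowest share of other cell types. In WT-MI, 2 were past without the 10 highest nuclei. At 2 UMIs of each gene, the co-detection ratio was 2.74 in WT-Sham (1 nucleus), 2.31 in KO-Sham (2 nuclei), 1.86 in WT-MI and 1.59 in KO-MI. A 2-fold call is stricter by construction. Leaving out the 10 highest nuclei takes a larger part of CM4 than of CM1, which tends to lower CM4 over CM1. Why the other counts moved was not tested. No share of all genes was computed under thinning, TMM factors, or removal of nuclei by UMIs or markers. Of 392 single ratios and added counts, 294 stayed within their interval or 1.5 times, 95 moved (39 of them away from 0) and 3 reversed, the third being Tagln in CM5 over CM1 of KO-MI (-0.080 over the transferred names CM2 and CM1). The removal of the nuclei highest in Myl7 and the transferred name for CM4 of KO-MI over WT-MI and for CM5 over CM1 were chosen after seeing the data. Low counts of Cnn1 and Tagln in Sham widen the intervals of their ratios.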
